A study of Homo sapiens with 4 samples.

Results

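The mitosis and chromosome segregation genes are a hand-made list of 44 genes whose products drive entry into mitosis, build the spindle, attach chromosomes to it and divide the cell. The members were picked by gene name, with earlier results of these data known. Of the 18175 genes and loci in the deposited table, 43 were members, and NUSAP1 was not analysed here. Expression in a line was taken as an FPKM (fragments per kilobase of transcript, scaled to sequencing depth) of 1 or more in any library of that line, which held for 42 members in both lines. The remaining one was PRC1.

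RNA was sequenced from A375 and SK-MEL-28, established human melanoma cell lines, grown in Dulbecco's modified Eagle medium with fetal bovine serum. The cells received either siNC, by its name a control siRNA, or siLINC01291, named for its target, the long non-coding RNA LINC01291; their dose and time are not stated in the labels. The treatment label also lists EL for these cells without saying what it is or which libraries received it. Each combination of line and siRNA was 1 library, 4 in all. A difference inside a line therefore has no replicate check and no p-value, and the 2 lines are the only repeats of the treatment.

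In a dividing cell, cyclin B bound to CDK1 starts mitosis, and the kinases PLK1, AURKA and AURKB carry it on. Kinesin motors and microtubule-binding proteins shape the spindle, the NDC80 complex holds microtubules at the kinetochore, and the checkpoint proteins MAD2, BUB1, BUBR1 and MPS1 hold back CDC20 until every chromosome is attached. CDC20 then directs the anaphase-promoting complex, with its ubiquitin-conjugating enzyme UBE2C, to destroy securin (PTTG1) and cyclin B. Most of these genes are transcribed late in the cell cycle under the MuvB, B-Myb and FOXM1 factors, so that their mRNA levels in a culture are widely used as a readout of proliferation. In bulk RNA, fewer cells in G2 or mitosis and less of these mRNAs per cell cannot be told apart.

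The libraries held between 29351240 and 31815336 counts. LINC01291 itself was at an FPKM of 6.39 (siNC) and 2.28 (siLINC01291) in A375 and of 8.11 and 3.70 in SK-MEL-28, and it fell over both lines by 1.34 on the log2 scale (SE 0.13; edgeR quasi-likelihood, Benjamini-Hochberg adjusted p = 0.0171). As to the labelled cell type, the melanocyte lineage factor SOX10 was at an FPKM between 80.1 and 147 in all libraries. The pigment cell genes TYR, DCT and MLANA were at an FPKM of at most 0.83 in A375, while in SK-MEL-28 the lowest of their values was 77.6. Of the 8 melanocyte lineage genes looked up, 4 were expressed in A375, SOX10 among them, and 8 in SK-MEL-28. Of the markers of other cell types, KRT14, LUM, LYZ, CDH1 and KRT8 had values, with an FPKM of at most 8.07.

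The members were abundant in both lines. Over the 42 expressed members, FPKM ran from 4.07 to 176 in A375 siNC, with a median of 37.2, and from 4.21 to 125 in SK-MEL-28 siNC, with a median of 29.8. In A375 siNC the highest levels belonged to CDC20 (FPKM 176), CCNB1 (140), UBE2C (130), TPX2 (112) and TOP2A (101). In SK-MEL-28 siNC the order was CCNB1 (125), CDC20 (101), AURKA (95.6) and PTTG1 (91.9). The phosphatase gene CDC25C was the lowest in both (4.07 and 4.21).

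With both treatments in the fit, 23 of the 42 members were lower and 5 were higher in SK-MEL-28 than in A375 (edgeR, adjusted p under 0.05). Of all 13501 genes tested, 36.3% were lower and 36.1% higher in SK-MEL-28, so that the members' calls lay more on the lower side than those of all genes. The line term averages siNC and siLINC01291, so the lower member levels of SK-MEL-28 with siLINC01291, described below, also enter it. It is thus not a comparison of the siNC libraries alone, where the median FPKM of the members was 37.2 in A375 and 29.8 in SK-MEL-28. UBE2C differed most (log2 difference of SK-MEL-28 to A375 -1.59, SE 0.14, edgeR adjusted p = 0.000102), followed by the spindle motors KIF15 (-1.07, SE 0.11, edgeR adjusted p = 0.00022) and KIF11 (-1.03, SE 0.10, edgeR adjusted p = 0.000144). The 5 members higher in SK-MEL-28 were the checkpoint kinase BUB1 (0.79, SE 0.09, edgeR adjusted p = 0.000366), the securin gene PTTG1 (0.72), the microtubule-binding HMMR (0.48), the passenger subunit BIRC5 (0.34) and the kinetochore subunit NUF2 (0.34). This fit leaves 1 residual degree of freedom per gene, and edgeR draws the error of each gene towards a trend over all tested genes. The small adjusted p values therefore rest largely on that pooled error.

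**Figure D1:**
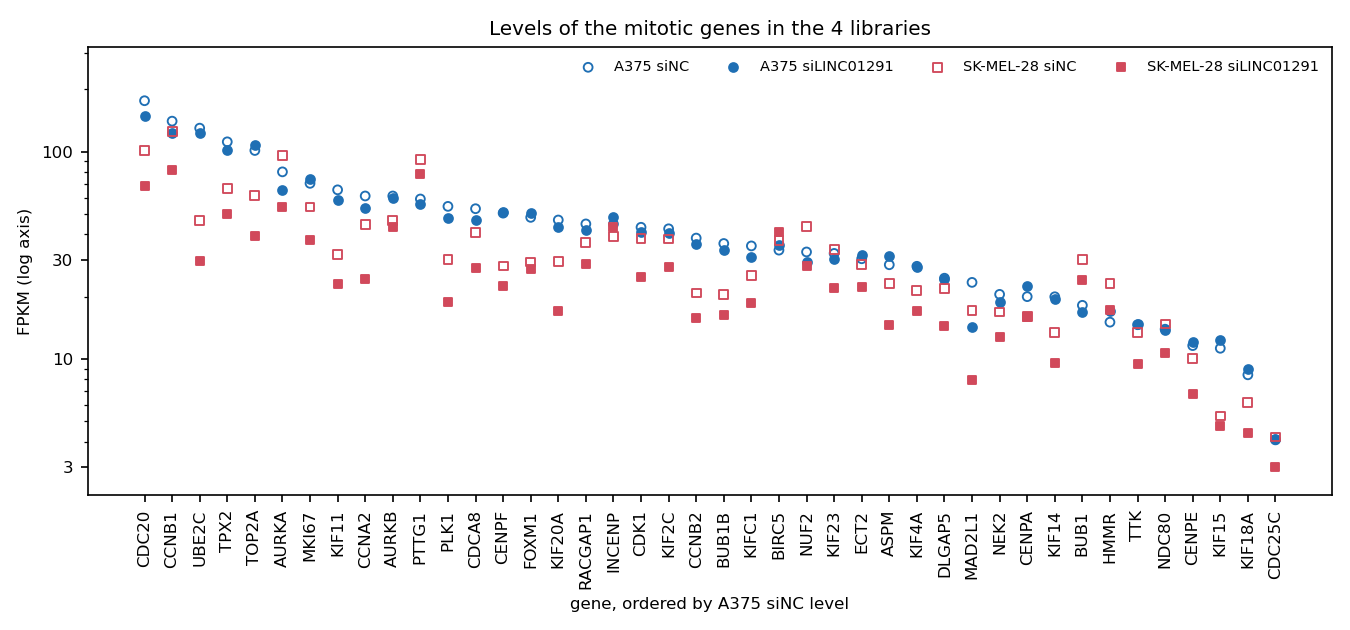
FPKM (log axis) of the 42 expressed mitotic genes in each of the 4 libraries; open symbols are siNC and filled symbols siLINC01291, circles A375 and squares SK-MEL-28. The filled square lies below the open square for all but INCENP and BIRC5, most widely for MAD2L1 (17.1 against 7.95), whose circles also lie apart (23.4 against 14.3).

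With siLINC01291, mitotic mRNAs were lower in SK-MEL-28 and little shifted in A375. Added over the 42 expressed members, the normalised CPM (counts scaled to depth with TMM factors) went from 6853 in siNC to 4869 in siLINC01291 in SK-MEL-28, which is 71.0% of the siNC sum. In A375 they went from 8050 to 7583, which is 94.2%. The median log2 ratio of siLINC01291 to siNC was -0.50 over the members in SK-MEL-28 (range -1.13 to 0.12) and -0.11 in A375 (range -0.75 to 0.13). The median over all expressed genes was 0.01 in SK-MEL-28 and 0.00 in A375.

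In SK-MEL-28, 16 of the 42 members (38.1%) were lower by 1.5-fold or more, and 0 were higher by as much. Of the 12336 expressed genes of that line, 4.99% were at least 1.5-fold lower and 796 genes at least 1.5-fold higher. In A375, 1 of 42 members (MAD2L1) was at least 1.5-fold lower, against 3.83% of 13244 expressed genes. At least 1.5-fold higher there were 0 members and 539 of all these genes. The ratio's 95% interval, an exact binomial one that holds counting error alone, lay below the siNC level for 39 members in SK-MEL-28 and above it for 2. In A375 it lay below for 24 members and above for 7. With many counts, such an interval clears the siNC level at a small shift, as for MKI67 in A375 (102% of siNC, 101 to 104%). The share of all expressed genes with such intervals was not computed, so these counts describe the members alone.

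The shift was lower in SK-MEL-28 than in A375 for 40 of the 42 members, with a median difference of the log2 ratios of -0.39 (range -0.79 to 0.07). Over all 10988 genes expressed in both lines this median was -0.0022, and the shift was lower in SK-MEL-28 for 5542 of them. The SK-MEL-28 ratio was below the A375 ratio by at least 1.5-fold for 6 members (CCNA2, KIF20A, CENPE, ASPM, MKI67 and TOP2A; 14.3%), against 3.47% of all these genes. This difference between the lines was not tested, because a fit with its own treatment effect in each line leaves no residual degree of freedom. Across the 42 members the ratios of the lines correlated with Pearson r = 0.61 and a Spearman coefficient of 0.45, and with r = 0.50 without MAD2L1. These points are genes of the same 4 libraries and not independent replicates.

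**Figure D2:**
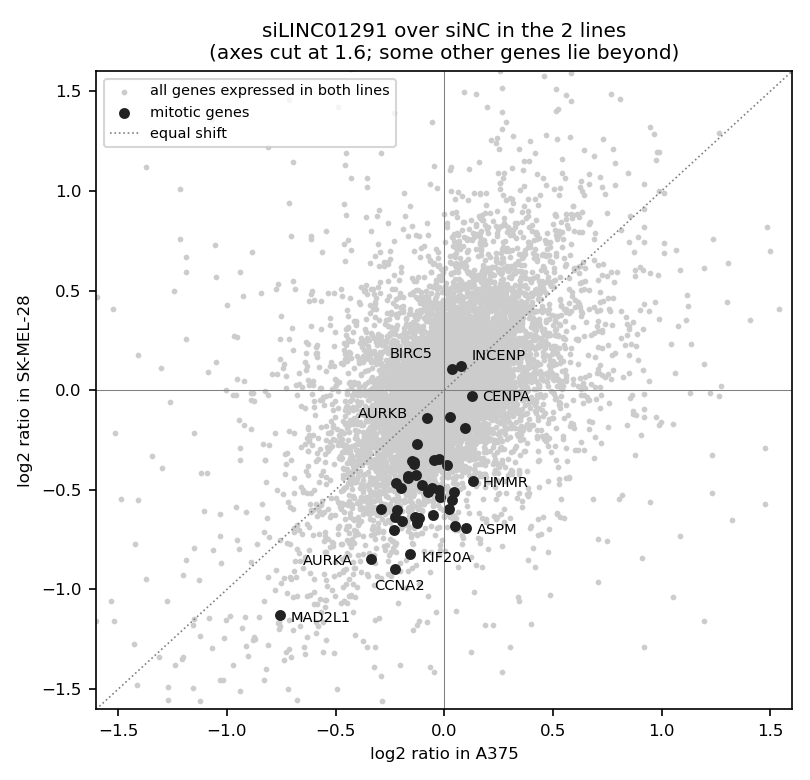
Log2 ratio of siLINC01291 to siNC in A375 (x axis) and SK-MEL-28 (y axis) for all genes expressed in both lines (grey) and the 42 mitotic genes (black), with a dotted line of equal shift. The members lie below the dotted line except BIRC5 and INCENP, with MAD2L1 lowest in both lines.

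Over both lines together, 1 of the 42 members tested fell (MAD2L1) and 0 rose at an adjusted p under 0.05 (edgeR, cell line as block). Of all 13501 genes tested, 0.674% fell and 0.222% rose. At an unadjusted p under 0.05 in edgeR, 21 members were lower and 0 higher, where 8.37% of all tested genes were lower and 1152 genes higher. The median log2 change over the members was -0.29, against 0.01 over all tested genes. The call of MAD2L1 was not made without the cell line term, by limma on log2(FPKM + 1), or with an FPKM minimum of 5, and DESeq2 called AURKA and CDC20 in addition. The calls of LINC01291 and of the NFYC and GINS1 genes described further on were likewise not made by limma or without the cell line term.

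Among the cyclins and entry kinases, all 8 members were lower in both lines, with a median log2 ratio of -0.64 in SK-MEL-28 and -0.20 in A375. In SK-MEL-28, 5 of the 8 were at least 1.5-fold lower. CCNA2, cyclin A2 of S phase and G2, was at an FPKM of 61.2 (siNC) and 53.8 (siLINC01291) in A375 and of 44.7 and 24.4 in SK-MEL-28. Its SK-MEL-28 level with siLINC01291 was the lowest of the 4 libraries, at 53.7% of siNC (counting interval 50.8 to 56.7%), and its A375 level was 85.6% of siNC (82.3 to 89.0%). AURKA, the kinase of spindle poles, was at an FPKM of 80.0 and 65.1 in A375 and of 95.6 and 54.1 in SK-MEL-28. It stood highest of the lines in SK-MEL-28 siNC and lowest in SK-MEL-28 siLINC01291, with log2 ratios of -0.34 and -0.85 and a joint change of -0.59 that did not pass (SE 0.13, edgeR adjusted p = 0.105).

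The mitotic kinase PLK1 was at an FPKM of 54.5 and 47.7 in A375 and of 30.2 and 18.9 in SK-MEL-28. Cyclin B1 (CCNB1) was at 140 and 124 in A375 and at 125 and 82.0 in SK-MEL-28. Its kinase partner CDK1 was at 43.2 and 41.0 in A375 and at 38.1 and 24.9 in SK-MEL-28. Cyclin B1 and CDK1 thus had nearly the same SK-MEL-28 log2 ratio (-0.64 each), whereas the ratio of the second B cyclin, CCNB2, was -0.42. NEK2, a centrosome kinase, was at -0.43 and CDC25C, the phosphatase that activates CDK1, at -0.50 in SK-MEL-28. Over both lines, the edgeR adjusted p of these members ran from 0.145 to 0.467, and none passed. With library totals alone as the scaling, the median over all expressed genes was 0.04 in each line, so the sign of an A375 ratio as close to 0 as that of CDC25C (-0.02) depends on the scaling.

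The chromosomal passenger complex, which corrects faulty attachments and works again in cytokinesis, was uneven. Its scaffold INCENP was at an FPKM of 44.8 and 48.5 in A375 and of 38.9 and 43.1 in SK-MEL-28. Survivin (BIRC5) was at 33.5 and 35.3 in A375 and at 37.1 and 40.8 in SK-MEL-28. For these 2 genes the siLINC01291 library was the higher one in both lines, with SK-MEL-28 log2 ratios of 0.12 and 0.11, and neither passed (edgeR adjusted p = 0.600 and 0.736). The kinase AURKB was at 61.2 and 59.5 in A375 and at 46.7 and 43.2 in SK-MEL-28, a log2 ratio of -0.14 in the latter. Borealin (CDCA8) was at 53.1 and 47.0 in A375 and at 41.0 and 27.5 in SK-MEL-28. With a log2 ratio of -0.60 it was the one subunit of the 4 past 1.5-fold.

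All 9 spindle motors were lower in SK-MEL-28, with a median log2 ratio of -0.49, and 7 were lower in A375, with a median of -0.10. KIF20A, a kinesin of the central spindle, was at an FPKM of 46.8 and 43.1 in A375 and of 29.5 and 17.0 in SK-MEL-28. Its SK-MEL-28 ratio was the lowest of the motors, 56.6% of siNC (counting interval 53.5 to 59.9%). KIF23, the kinesin of the centralspindlin complex, was at 32.3 and 30.2 in A375 and at 33.7 and 22.1 in SK-MEL-28. KIF20A and KIF23 were the 2 of these 9 motors past 1.5-fold in SK-MEL-28. KIF11, the motor that pushes spindle poles apart, was at 65.5 and 58.6 in A375 and at 31.9 and 23.1 in SK-MEL-28. KIF15, which can take over part of the work of KIF11, was at 11.3 and 12.4 in A375 and at 5.31 and 4.74 in SK-MEL-28, the smallest SK-MEL-28 shift of the motors (-0.19). The others, KIF14, KIF18A, KIF2C, KIFC1 and KIF4A, had SK-MEL-28 log2 ratios between -0.51 and -0.35 and A375 ratios between -0.22 and 0.05.

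At the kinetochore, NUF2 of the NDC80 complex was at an FPKM of 32.8 and 29.5 in A375 and of 43.7 and 28.2 in SK-MEL-28. Its partner NDC80 was at 13.9 and 13.8 in A375 and at 14.8 and 10.7 in SK-MEL-28. The kinetochore motor CENPE was at 11.6 and 12.1 in A375 and at 10.1 and 6.81 in SK-MEL-28. NUF2 and CENPE were at least 1.5-fold lower in SK-MEL-28, and CENPE was slightly higher with siLINC01291 in A375 (log2 ratio 0.02, counting interval of the level 96.9 to 106% of siNC). CENPF, a large protein of the outer kinetochore, had log2 ratios of -0.02 and -0.34. The centromeric histone CENPA was at 20.0 and 22.4 in A375 and at 16.0 in both SK-MEL-28 libraries, so that its SK-MEL-28 level (97.9% of siNC, 89.2 to 107%) could not be told from siNC within counting error.

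MAD2L1 stood apart among the checkpoint genes. It codes for MAD2, which the checkpoint places on CDC20. Its FPKM was 23.4 and 14.3 in A375 and 17.1 and 7.95 in SK-MEL-28. The siLINC01291 library was the lower one in both lines, at 59.3% of siNC in A375 (counting interval 56.4 to 62.3%) and 45.7% in SK-MEL-28 (42.7 to 48.8%). MAD2L1 fell over both lines by 0.94 on the log2 scale (SE 0.12; edgeR adjusted p = 0.0353; lower in 2 of 2 lines). It was the lowest member in each line. The checkpoint kinase TTK (MPS1) was at 14.6 and 14.8 in A375 and at 13.4 and 9.45 in SK-MEL-28, with log2 ratios of -0.02 and -0.53. BUB1 and BUB1B had nearly equal ratios, -0.15 and -0.14 in A375 and -0.36 each in SK-MEL-28.

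MAD2L1 also differed from the other members in its 3' UTR. The 7-base words CTATGAA and TCTATGA, which had gone with lower ratios in an earlier search of these same libraries, were looked up in the GENCODE 29 principal transcript of each of the 43 members with a row, on the transcript strand; the words overlap by 6 bases. MAD2L1 was the one member that held either word. Its 3' UTR was also the longest of the members (4510 bases, next MKI67 with 2531), which leaves more places for any word. Among 9295 other genes expressed in both lines with a searched 3' UTR, 14.4% held one, and their UTRs were longer (median 1177 bases, against 601 for the 42 expressed members). Since the words were picked on ratios that may include MAD2L1, the match is a description and adds no evidence. The site lies 556 bases into a 3' UTR of 4510 bases, on the - strand at chr4:120059545-120059572 (GRCh38), and is shown because the single called member carries it, with the matched word in capitals.

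MAD2L1: taacttgaacCTATGAAgcaatggatat

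The 41 expressed members without either word had a median log2 ratio of -0.49 in SK-MEL-28 and -0.10 in A375. Other genes without either word had medians of 0.02 and 0.01, and those with a word of -0.18 and -0.08. The words were picked for lower ratios in these same libraries, so the lower medians with a word follow from that choice and add no evidence.

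The anaphase genes CDC20, UBE2C and PTTG1 were lower in both lines. CDC20 was at an FPKM of 176 and 148 in A375 and of 101 and 68.2 in SK-MEL-28, with log2 ratios of -0.29 and -0.60 and a joint change of -0.44 that did not pass (SE 0.10, edgeR adjusted p = 0.108). UBE2C was at 130 and 122 in A375 and at 46.6 and 29.9 in SK-MEL-28. PTTG1 was at 59.1 and 55.8 in A375 and at 91.9 and 77.7 in SK-MEL-28. The SK-MEL-28 ratio of PTTG1 (-0.27) was closer to 0 than those of UBE2C (-0.67) and CDC20 (-0.60).

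The spindle assembly genes differed between the lines, with a median log2 ratio of 0.03 in A375 and of -0.54 in SK-MEL-28. ASPM, a protein of spindle poles, was at an FPKM of 28.5 and 31.5 in A375 and of 23.1 and 14.6 in SK-MEL-28. It was higher with siLINC01291 in A375 (log2 ratio 0.10) and lower in SK-MEL-28 (-0.69), the largest difference between lines of any member (-0.79). HMMR, a microtubule-binding hyaluronan receptor, was at 15.1 and 16.9 in A375 and at 23.0 and 17.1 in SK-MEL-28. DLGAP5, which stabilises fibres at the kinetochore, was at 24.5 and 24.4 in A375 and at 21.9 and 14.4 in SK-MEL-28. TPX2, the activator of AURKA, was at 112 and 102 in A375 and at 66.5 and 49.9 in SK-MEL-28 and was thus lower in both lines.

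PRC1, the bundler of the central spindle, could not be read from this table. It was at an FPKM of 0.345 and 0.233 in A375 and of 0.436 and 0.382 in SK-MEL-28, from 41 to 71 counts, and did not enter the test. In GENCODE 29, 57.6% of its exon bases (gene at 15:90966038-90995629, GRCh38) are shared with another gene on the same strand, ENSG00000284946, which had 219 to 372 counts in the 4 libraries. Such bases are ambiguous when reads are counted per gene. For NUSAP1 the shared part is 62.2%. For the other members it was at most 10.2%, reached by BUB1B. Whether counting used strand is not given, so antisense overlap also matters for FOXM1 (15.9% of exon bases), KIFC1 (12.7%) and PLK1 (12.5%).

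Of the cytokinesis regulators, ECT2 was at an FPKM of 30.5 and 31.6 in A375 and of 28.4 and 22.3 in SK-MEL-28. Its partner RACGAP1 was at 44.8 and 41.9 in A375 and at 36.5 and 28.7 in SK-MEL-28. Their SK-MEL-28 log2 ratios were alike (-0.38 and -0.37), and in A375 RACGAP1 was lower (-0.14) and ECT2 near 0 (0.01).

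The proliferation antigen gene MKI67 was at an FPKM of 70.4 and 74.1 in A375 and of 54.1 and 37.6 in SK-MEL-28. TOP2A, the topoisomerase that untangles sister chromatids, was at 101 and 108 in A375 and at 61.6 and 39.1 in SK-MEL-28. In both genes the siLINC01291 library was slightly higher in A375 (log2 ratios 0.03 and 0.05) and clearly lower in SK-MEL-28 (-0.55 and -0.68). FOXM1, a transcription factor of these genes, was at 48.2 and 50.6 in A375 and at 29.4 and 27.3 in SK-MEL-28, log2 ratios of 0.03 and -0.14. The FOXM1 ratio in SK-MEL-28 was closer to 0 than that of 38 of the other 41 expressed members.

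**Figure D3:**
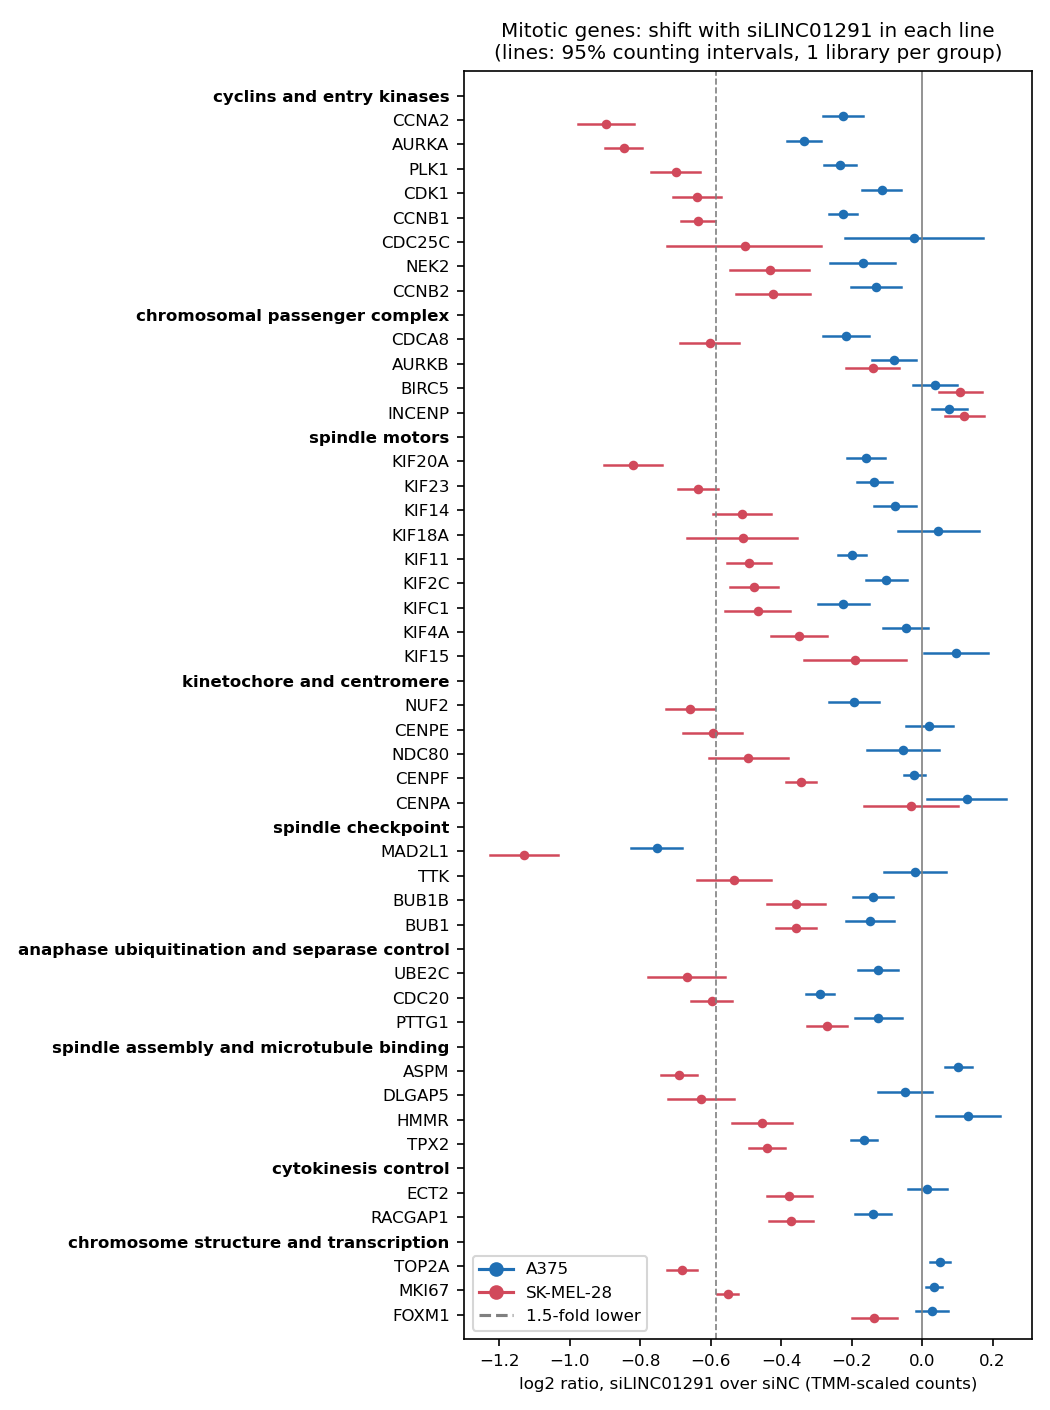
Log2 ratio of siLINC01291 to siNC for each of the 42 expressed mitotic genes in A375 (blue) and SK-MEL-28 (red), grouped by role; horizontal lines are 95% counting intervals, the solid vertical line marks no shift and the dashed one 1.5-fold lower. All 8 cyclin and entry kinase genes lie left of the solid line in both lines, and the red points reach from -1.13 (MAD2L1) to 0.12 (INCENP).

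The members share promoter letters that their choice did not use. In the 250 bases before each RefSeq start (GRCh38.p14), 35 of the 42 expressed members and PRC1 had an entry, 36 in all. The word TTTGAA is the core of the cell cycle genes homology region, to which the MuvB complex binds, and CCAAT is the box of the NF-Y factor; both strands were searched, and the words can overlap. TTTGAA was found in 21 of 36 members (58.3%) and in 11.2% of 7967 other genes expressed in both lines. CCAAT was found in 30 of 36 (83.3%) and in 42.3% of the others. Both words stood before the same start in 19 of 36 (52.8%) and in 4.46% of the others. Of 119 other mitotic pathway genes (lists described below), 28.6% held TTTGAA, 58.0% CCAAT and 19.3% both. Of 37 replication and G1/S genes, 5.41% held TTTGAA, 56.8% CCAAT and 2.70% both. A raised CCAAT share was thus not particular to the members, and a raised TTTGAA share was partly seen in the other mitotic genes. Of all 35116 start sites in the table, 13.3% held TTTGAA, 32.0% CCAAT and 4.69% both.

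Examples are shown as the 120 bases next to the start, with each TTTGAA and CCAAT (or its reverse complement) in capitals. PLK1 (chr16:23678769-23678888, + strand), KIF23 (chr15:69414229-69414348, + strand) and MKI67 (chr10:128126424-128126543, - strand) hold both words and were lower in SK-MEL-28. KIF20A (chr5:138178992-138179111, + strand) was among the lowest members there and holds CCAAT without TTTGAA. INCENP (chr11:62123891-62124010, + strand) holds both words and was slightly higher in both lines.

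PLK1: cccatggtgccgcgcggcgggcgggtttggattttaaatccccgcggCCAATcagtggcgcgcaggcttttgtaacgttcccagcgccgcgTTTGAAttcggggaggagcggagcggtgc

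KIF23: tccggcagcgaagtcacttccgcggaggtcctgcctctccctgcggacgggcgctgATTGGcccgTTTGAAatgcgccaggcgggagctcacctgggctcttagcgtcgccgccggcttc

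MKI67: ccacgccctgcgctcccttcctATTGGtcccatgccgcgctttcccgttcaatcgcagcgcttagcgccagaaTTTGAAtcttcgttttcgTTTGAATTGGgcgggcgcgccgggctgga

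KIF20A: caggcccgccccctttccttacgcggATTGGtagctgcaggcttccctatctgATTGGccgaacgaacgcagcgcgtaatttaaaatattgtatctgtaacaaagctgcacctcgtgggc

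INCENP: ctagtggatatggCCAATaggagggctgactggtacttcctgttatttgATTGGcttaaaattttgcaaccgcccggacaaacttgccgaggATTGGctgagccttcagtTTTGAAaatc

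The 18 expressed members with both words had a median SK-MEL-28 log2 ratio of -0.53, the 11 with CCAAT alone -0.47, the 2 with TTTGAA alone (BUB1B and KIF15) -0.27, and the 4 with neither (CENPE, KIF2C, NDC80 and NUF2) -0.54. Among genes outside the list, the 355 with both words had a median of -0.05 in SK-MEL-28 and 0.00 in A375, and 5.92% of them were at least 1.5-fold lower in SK-MEL-28. The 4188 with neither word had medians of 0.01 and 0.01, and 3.49% of them were at least 1.5-fold lower.

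The wider mitotic machinery was followed in 143 further genes from 6 hand-made lists, 138 of them expressed in SK-MEL-28 and 139 in A375. Their median log2 ratio was -0.16 in SK-MEL-28 and -0.05 in A375, and 13 (9.42%) were at least 1.5-fold lower in SK-MEL-28, against the 38.1% of members and 4.99% of all expressed genes given above. Of the 140 tested over both lines, 1 fell (NFYC) and 0 rose (edgeR). At an unadjusted p under 0.05 in edgeR, 36 of the 140 were lower and 6 higher, against 8.37% lower and 1152 higher of all 13501 tested genes.

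Other spindle, centrosome and cytokinesis genes came closest to the members, with a median of -0.26 in SK-MEL-28 and 7 of 32 at least 1.5-fold lower. They were led by the spindle protein PSRC1 (-0.54 in A375, -1.06 in SK-MEL-28), the citron kinase gene CIT (-0.34, -0.61) and the kinesin KIF18B (-0.27, -0.66). Other kinetochore genes had a median of -0.19 in SK-MEL-28, with 4 of 35 at least 1.5-fold lower (CENPQ, SPDL1 and OIP5 among them) and 2 higher (ZW10 and MAD1L1). The inner kinetochore gene CENPQ (-0.72, -1.02) and SPDL1 (-0.37, -0.73), whose product brings dynein to kinetochores, were lower, while ZW10 of the same dynein pathway was higher (0.54, 1.09). OIP5 and MAD1L1 are named after their values were seen. OIP5, with 71 to 154 counts, was higher in A375 (log2 ratio 0.41) and lower in SK-MEL-28 (-0.79). For MAD1L1, whose product anchors MAD2 at kinetochores, the log2 ratio was 0.76 in SK-MEL-28, and in A375 the gene was under the FPKM minimum. None of these genes passed the joint test (edgeR adjusted p from 0.0575 to 0.848).

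Condensin and cohesin genes had a median of -0.18 in SK-MEL-28. By the mean ratio of the 2 lines, they were led by the separase gene ESPL1 (-0.26, -0.54) and the condensin subunits NCAPG (-0.16, -0.59) and SMC4 (-0.22, -0.50). The anaphase-promoting complex genes, which most cells express through the whole cycle, had a median of 0.02 in A375 and of -0.03 in SK-MEL-28, with 0 of 16 past 1.5-fold. Its inhibitor FBXO5 was lower (-0.15, -0.41), and the small subunits ANAPC16 (0.35, 0.07) and ANAPC13 (0.21, 0.17) were higher. Entry regulators had a median of -0.22 in SK-MEL-28, with the CDK1 brake WEE1 (-0.17, -0.50) and the kinase MELK (-0.18, -0.42) lower and the phosphatase inhibitor ENSA (0.22, 0.62) higher. Among transcription factors of the MuvB, DREAM and NF-Y groups, the median was -0.04 in SK-MEL-28. There NFYC, a subunit of the CCAAT-binding factor, fell (-1.26, -1.63; joint SE 0.12, edgeR adjusted p = 0.0133), whereas its partner NFYA (0.40, 0.54) and the repressor E2F4 (-0.41, -0.54) did not pass (edgeR adjusted p = 0.0940 and 0.0780).

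Genes of DNA replication and the G1/S step showed another order of the lines. The median log2 ratio of these 42 genes was -0.13 in A375, where 37 were below 0, and -0.03 in SK-MEL-28, where 23 were below 0. Of all expressed genes, 6597 of 13244 were below 0 in A375 and 5908 of 12336 in SK-MEL-28. The SK-MEL-28 shift was the lower one for 14 of these 42 genes, against 40 of 42 mitotic members and 5542 of all 10988 genes expressed in both lines. GINS1, of the replicative helicase, fell (-1.27, -1.49; joint SE 0.11, edgeR adjusted p = 0.0130), and the licensing factor CDT1 (-0.54, -0.18) and cyclin E1 (CCNE1; -0.25, -0.41) did not pass (edgeR adjusted p = 0.203 and 0.261). In SK-MEL-28 the lower levels were thus seen for mitotic genes and not for the replication list as a whole. Whether this difference between the lists exceeds the spread between replicate cultures was not tested, with 1 library per group.

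**Figure D4:**
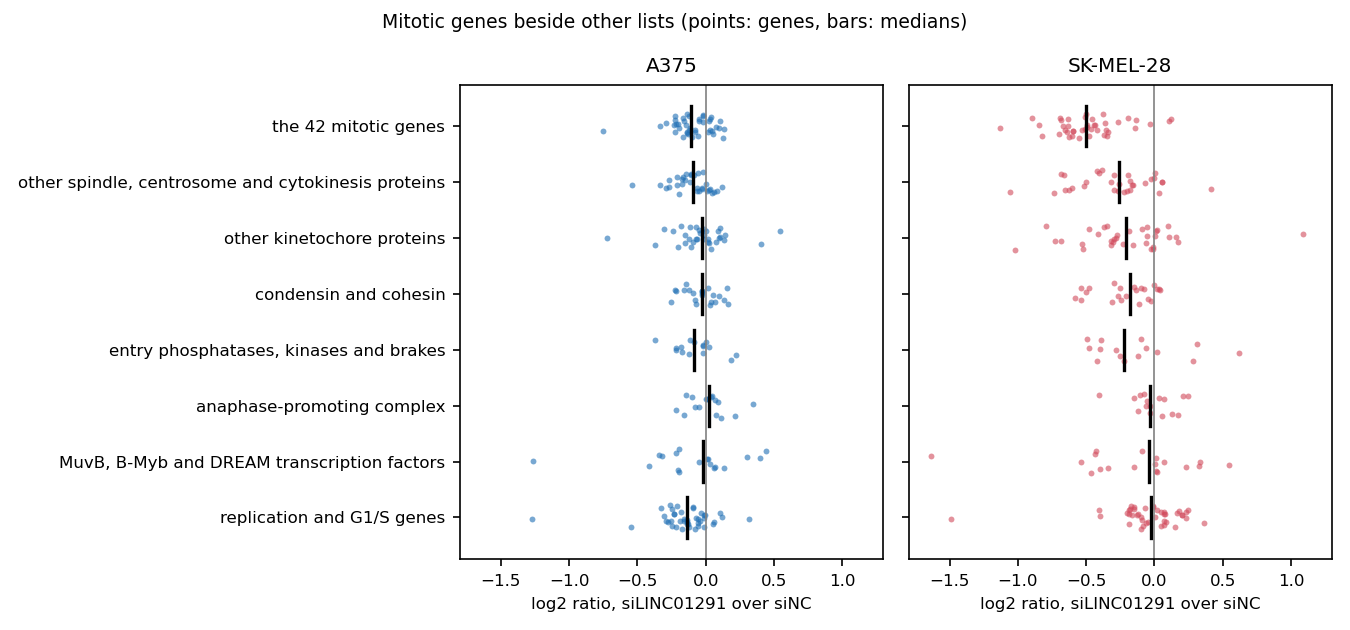
Log2 ratio of siLINC01291 to siNC in A375 (left) and SK-MEL-28 (right) for the 42 mitotic genes and the other lists, restricted to genes expressed in both lines; points are genes and black bars medians. In SK-MEL-28 the median of the mitotic genes (-0.50) lies left of all other lists, and the replication genes centre near 0.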

How the data were processed

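RNA of 4 libraries (1 per group) was analysed. Per the labels' protocols, mRNA was enriched with oligo(dT), fastp removed adapters, duplicates and poor reads, ribosomal reads were discarded, HISAT2 aligned the rest, StringTie added new transcripts to the known genes, and HTSeq counted reads per gene. The submitters' processing notes list hg19, DESeq2 and edgeR. The annotation release and use of strand are not given in the sources used here, so reads of overlapping antisense genes cannot be told apart. The authors deposited counts (whole reads per gene), CPM (scaled to depth), FPKM (also per kilobase) and TPM, per the file headers; TPM and CPM as deposited were not used.

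Log2 ratios within a line used counts, TMM factors and a prior of 2 counts. Over both lines, edgeR 4.0.16 (R 4.3.3) quasi-likelihood tests with line and treatment as terms were fitted on 13501 genes that reached an FPKM of 1 in 2 or more libraries, with Benjamini-Hochberg adjustment over all of them and a threshold of 0.05; 1 residual degree of freedom remained. The pairing comes from the cell line. Intervals are 95% exact binomial ones and cover counting error only. DESeq2 1.42.0 and limma 3.58.1 served as alternatives. The fit was tested on simulated data, where the share of false calls was above the threshold and 1.5-fold changes were not all recovered. Sequences are from GENCODE 29 and RefSeq (both GRCh38) and were joined by gene, not by coordinates; the members' promoters were matched by symbol. Members, lists and their division by role were chosen with earlier results of these data known. The text names members, and of each other list the called genes and up to 3 with the largest mean shift among those expressed in both lines. OIP5 and MAD1L1 were named outside this rule. Nothing says that the libraries stem from separate cultures. The residual of the fit over both lines is the difference in the siRNA shift between the lines. A shift that differs between the lines thus enters the error of its own test. The p-values therefore hold no spread between replicate cultures. Sequence searches and drawings ran in Python 3.11.15 (pandas 2.3.3, matplotlib 3.10.9).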

Additional observations from a re-analysis of the deposited data

Results flagged for a closer look

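For 5 members the shifts pointed in opposite directions in the 2 lines, with both counting intervals off the siNC level. The log2 ratios in A375 and SK-MEL-28 were 0.10 and -0.69 for ASPM, 0.051 and -0.68 for TOP2A, 0.034 and -0.55 for MKI67, 0.13 and -0.45 for HMMR, and 0.10 and -0.19 for KIF15. The difference between the lines was not tested, since each line has 1 library per treatment. The A375 side of these shifts is small, and the intervals hold no variation between cultures. How many of all genes show such opposite shifts was not counted.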

How the results depend on the processing

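Of 154 recomputed values, 141 were classed as unchanged. For a median this meant a move of less than the counting error (0.0669 on the log2 scale). For a count it meant a change of at most 1.5 times, a limit set by hand. For the log2 change of MAD2L1 it meant the same direction and side of the threshold. Its values from 1 line at a time have no test and were classed as unchanged without applying a limit. With library totals alone as the scaling, 13 members were at least 1.5-fold lower in SK-MEL-28, against 16 as reported. Calls close to that limit thus depend on the scaling. A 2-fold limit left 0 members in A375 and 1 in SK-MEL-28. Without an FPKM filter, PRC1 joined the spindle assembly genes, and their median went from 0.03 to -0.050 in A375 and from -0.54 to -0.45 in SK-MEL-28. Over both lines, the number of members that fell (1 in the edgeR fit as reported) was 2 without an FPKM filter (MAD2L1 and AURKA) and 3 with DESeq2 (these and CDC20). It was 0 with an FPKM minimum of 5 (edgeR, MAD2L1 adjusted p = 0.0639; 17 members lower at an unadjusted p under 0.05), 0 with limma on log2(FPKM + 1) (MAD2L1 adjusted p = 0.146; 10 members) and 0 in edgeR without the replicate block, that is without the cell line term (MAD2L1 log2 change -0.91, 0 members). The adjusted p of MAD2L1 ranged from 5.82e-06 (DESeq2) to 1.00 (edgeR without the cell line term). Taken 1 line at a time, its log2 ratio was -0.75 in A375 and -1.13 in SK-MEL-28, with no test. For SK-MEL-28 against A375, limma on log2(FPKM + 1) called 2 members higher, where edgeR called 5. With library totals alone, the small A375 medians of the passenger and kinetochore genes (-0.02 each) were 0.02 each. The lowest count of an expressed member was 296 (CDC25C), and PRC1 is limited by its 41 to 71 counts. No paired analysis beyond the line term was possible because each line had 1 library per siRNA.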
